A study of Sus scrofa with 12 samples.

Results

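The acrosome is the enzyme-filled vesicle that caps the sperm nucleus, and its release lets a sperm pass the coat of the egg. Behind it, the head holds DNA packed first by transition proteins and then by protamines, and proteins of the sperm surface bind and fuse with the egg membrane. Mature sperm make almost no new RNA, so the mRNAs they carry are remnants of earlier stages, and N6-methyladenosine (m6A) is the commonest internal mark on mRNA. The genes described here were listed by these known functions: acrosomal enzymes and matrix proteins, genes of egg binding and fusion, the egg-activating phospholipase, genes that form the acrosome and shape the head, and genes of chromatin compaction. The list held 40 genes, and 39 of them, of 20678 genes with an mRNA, were found in the RefSeq annotation of the pig genome Sscrofa11.1. SPACA6 was not analysed here.

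The study set out to compare m6A in boar sperm before and after cryopreservation. Sperm-rich ejaculates of 3 Duroc boars were divided into a part put in liquid nitrogen at once (fresh sperm, Fs) and a part that was cooled to 17 °C, then to 4 °C in an extender of lactose and egg yolk, frozen with 6% glycerol, and thawed (Fts). RNA fragments of about 100 nt carrying m6A were pulled down with an antibody (IP), and a stretch of mRNA with more IP than input reads was called a peak by the authors. Each group had 3 IP samples, and the study's methods name a paired design, but the labels do not tie a sample to a boar. Samples were therefore compared without pairs, and p-values measure only the spread between these samples, which may be technical. A peak's score is 10 times -log10 of its MACS p-value. It rises with the number of reads as well as with enrichment, and mRNA levels were not measured by these lists. The lists therefore do not tell apart more methylation, more of an mRNA and more cells that carry it. The study also sequenced input RNA and compared mRNA levels, and these data were not used here. The list of each Fs sample held 8015, 10378 and 10335 peaks, and that of each Fts sample 9682, 11510 and 11982. The lists carry no read counts, and scores were not set against read depth here.

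Peaks were found on 20 of the 39 genes, or 51.3%, against 56.6% of all genes with an mRNA. The genes are short, with a median of 1533 bp of exon against 2988 bp over all genes. Of the 9 listed genes under 1000 bp, 4 had a peak, against 36.8% of all genes of that length, and from 1000 to 2000 bp it was 8 of 16, against 42.0%. From 2000 to 4000 bp it was 4 of 10, against 55.2%. All 4 listed genes of 4000 bp or more had one, as did 72.6% of all genes of that length. Weighted by the number of listed genes in these 4 length classes, the share of all genes with a peak is 47.3%, and such length-weighted shares are given below for smaller sets. The Fs samples had a peak on 9, 11 and 8 of the genes and the Fts samples on 10, 11 and 14, so the groups overlapped. That was 23.9% ± 3.92 of the listed genes in Fs and 29.9% ± 5.34 in Fts (SD, n = 3). Of all genes it was 28.9% ± 3.06 and 29.4% ± 2.42, also with overlap. Summed over the listed genes there were 11, 14 and 11 peaks per Fs sample, and 10, 17 and 20 per Fts sample, again with overlap. This gave means of 12.0 ± 1.73 peaks (SD, n = 3) and 15.7 ± 5.13 peaks, a difference within the spread of the Fts samples. The difference of 3.67 was 0.333 with the same number of highest-scoring peaks taken from each list, 1.5 without Fts replicate 3 and 6.5 without Fts replicate 1. Relative to all peaks on mRNAs, the genes took 0.149% ± 0.0196 in Fs and 0.156% ± 0.0353 in Fts.

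The direction differed from gene to gene. The number of peaks was higher in every Fts sample than in every Fs sample for 2 of the 20 genes, ZPBP and PICK1, a share of 10% against a background of 8.98% of all genes with a peak. It was higher in every Fs sample for ACR and SUN5, also 10%, against a background of 5.36%. The highest score on a gene, called its best score here and set to 0 where no peak was listed, was higher in every Fts sample for the same ZPBP and PICK1, against a background of 13.2%. It was higher in every Fs sample for ACR, DPY19L2 and SUN5, 15% of the genes, against a background of 10.7%. With 2 or 3 genes each, these shares lie near the background and are no result about the genes as a group. For each of these differences the two-sided exact permutation test gave p = 0.1, and 3 samples against 3 can give no smaller value. Adjusted by Benjamini-Hochberg over the 11705 genes with a peak, this p became 0.698 for the number of peaks and 0.420 for the best score, so no difference on a single gene passed a test. Over all genes with a peak, 13.5% had one in all 6 samples, against SPACA1 and SUN5 here, and 24.7% had one in a single sample, against 5 of these 20 genes (SPACA3, PRSS37, DCST1, PRM2 and TNP2). A peak in the 3 Fts samples and no Fs sample was found for ZPBP and PICK1 and for 5.59% of all genes with a peak. The reverse was found for ACR and for 4.16%.

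**Figure D1:**
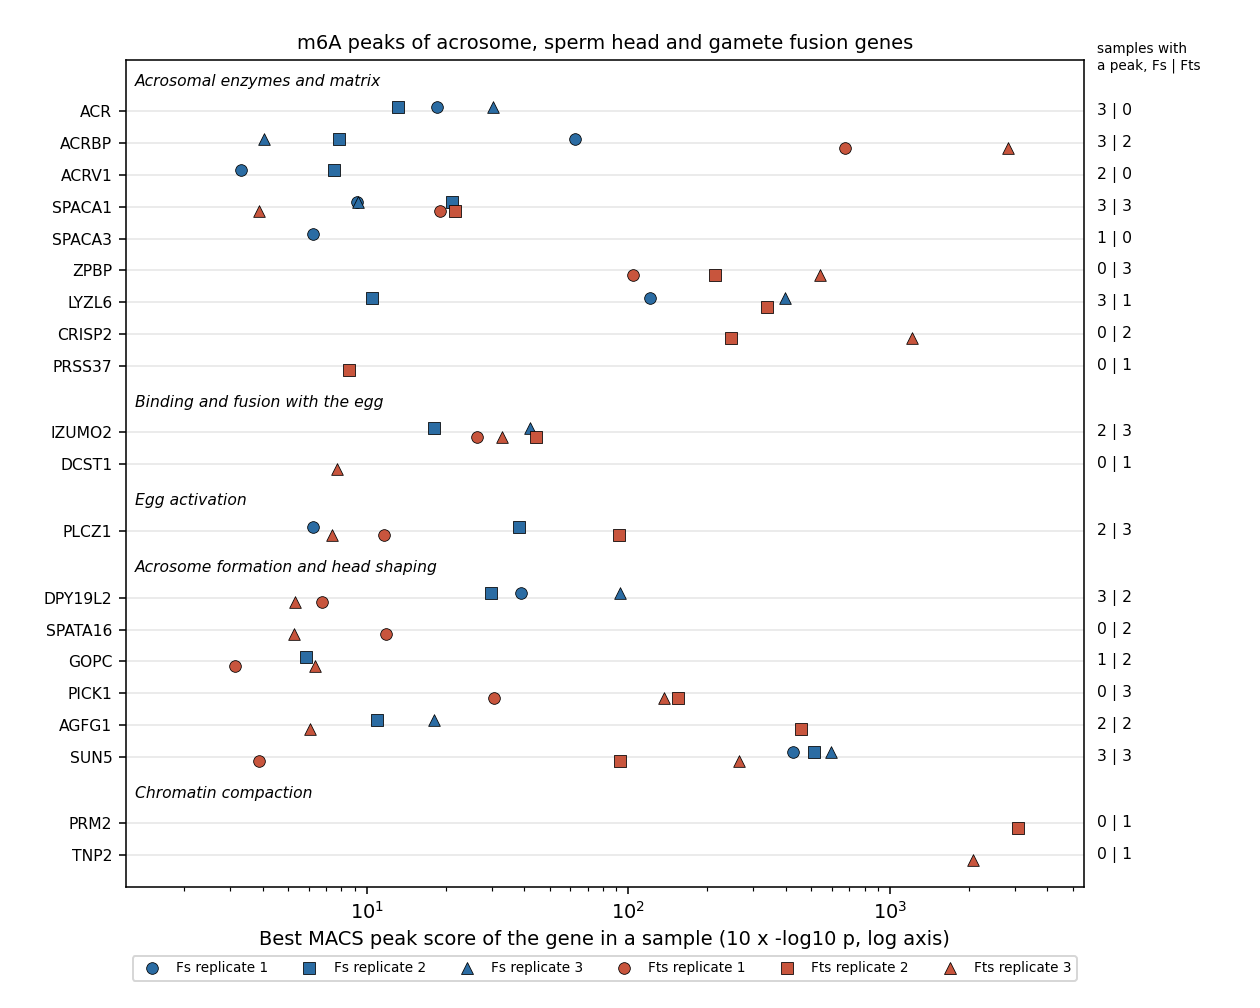
Best peak score (10 times -log10 p, log axis) of each of the 20 genes with a peak, by role, with 1 point per sample, blue for Fs and red for Fts, and the replicate number by shape; samples without a peak have no point and are counted at the right. ACR has points in Fs alone, ZPBP and PICK1 have points in Fts alone, and the 3 Fs points of SUN5 lie between 424.2 and 595.5, above its Fts points.

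Among the 18 genes of acrosomal enzymes and matrix, 9 had a peak, or 50%, against 56.6% of all genes and a length-weighted share of 43.8%. ACR had peaks in Fs alone and ZPBP in Fts alone, while ACRBP, CRISP2 and LYZL6 had scores above 200 in some samples and no peak in others. ACR encodes acrosin, the main serine protease of the acrosome. It had 2 peaks in each Fs sample and none in the Fts samples. One, on the first 111 of the 207 bp of exon 2 of 9, at chr5:34771-34881 on the minus strand, lies in the coding sequence and had scores of 17.5, 13.2 and 12.1. The other spans the stop codon and runs to the annotated 3′ end of the mRNA, at position 30127, with scores of 18.6, 4.80 and 30.5. The best score was 20.8 ± 8.85 in Fs (SD, n = 3). Of these 6 peaks, 5 stood above the median of their list and 1 below it. Those medians, 11.93, 11.55 and 10.73, are low scores with a p above 0.05. The peaks with scores of 12.1 and 4.80 also had a p above 0.05 by their score. Once peaks under a score of 20 were dropped, the groups overlapped for ACR.

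ZPBP encodes a protein of the acrosome that binds the zona pellucida. No Fs sample had a peak on it, while the Fts samples had 1, 2 and 2, their best scores being 104.4, 213.6 and 540.4 (286.1 ± 226.9, SD, n = 3). These peaks covered whole exons of the coding sequence and met across exon junctions. Exon 3 of 8 was covered in Fts replicates 1 and 2, with scores of 104.4 and 133.0, exon 4 in replicates 2 and 3, with 213.6 and 540.4, and exon 5 in replicate 3 alone, with 54.7. No single exon was covered in all 3 Fts samples. The groups stayed apart in all 6 alternative settings for peaks and scores and in all 6 with a replicate left out. The coding stretches of ACR and ZPBP found in 2 or more samples of a single group are shown from Sscrofa11.1, read on the transcript strand. ZPBP exon 3 lies at chr9:136176233-136176358 and exon 4 at chr9:136170704-136170853, both on the minus strand. Capitals mark each match to RRACH, the general m6A motif, with A or G at its first 2 bases, then AC, then A, C or T, and a match only describes the letters.
ACR exon 2, first 111 bp: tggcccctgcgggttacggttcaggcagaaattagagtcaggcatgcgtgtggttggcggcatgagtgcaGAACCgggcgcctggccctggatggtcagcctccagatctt
ZPBP exon 3: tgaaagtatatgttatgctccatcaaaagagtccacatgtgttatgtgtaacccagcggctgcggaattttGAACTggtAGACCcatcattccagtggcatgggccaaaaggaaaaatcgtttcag
ZPBP exon 4: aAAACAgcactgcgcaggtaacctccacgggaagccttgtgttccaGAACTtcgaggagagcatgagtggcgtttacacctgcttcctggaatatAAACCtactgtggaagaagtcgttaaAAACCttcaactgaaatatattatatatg

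ACRBP, which binds proacrosin during its packaging, had a peak in 5 of the 6 samples. Exon 5 of 10, at chr5:64040562-64041018, is coding sequence and was covered whole in Fs replicate 1 with a score of 62.5, in Fts replicate 1 with 675.0 and in Fts replicate 3 with 2827. Fts replicate 2 had no peak on the gene, so the groups overlapped (two-sided exact permutation test of the best score, p = 0.4, n = 3). In Fs replicates 2 and 3 the peak lay instead at the 5′ end of the mRNA, in exon 1, with scores of 7.80 and 4.04. CRISP2, a cysteine-rich secretory protein of the acrosome and tail, had no peak in Fs or in Fts replicate 1. Its last exon carried a peak in Fts replicates 2 and 3, with scores of 247.1 and 1218, and Fts replicate 3 had another on exon 5 of 10 with 823.4. Since Fts replicate 1 was without a peak, as the Fs samples were, the groups overlapped for CRISP2. The peak on the last exon reached past the annotated gene end, with 603 of its 925 and 993 bp on exons.

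LYZL6 encodes a lysozyme-like protein of the sperm head. A single coding exon, exon 2 of 4, was covered whole in each Fs sample, with scores of 121.0, 10.4 and 397.6, and in Fts replicate 2 with 339.3. The Fts value lay inside the range of Fs (two-sided exact permutation test of the best score, p = 0.5, n = 3). SPACA1, an acrosomal membrane protein, had the same peak in all 6 samples. It covered exon 1 of 7, with scores of 9.16, 21.1 and 9.28 in Fs and 19.1, 21.7 and 3.86 in Fts. The means were 13.2 ± 6.86 and 14.9 ± 9.61 (SD, n = 3), a difference of 1.67, smaller than either SD (two-sided exact permutation test, p = 0.9). This was the only region of the 44 on these genes present in all 6 samples, 2.27%, against 3.23% of all 26220 regions. The exon of SPACA1, at chr1:56378300-56378507 on the plus strand, is rich in G and C (69.2%) and holds no RRACH, while that of LYZL6, at chr12:17844174-17844332 on the plus strand, holds 1. They are printed as the stretches that samples of both groups shared.
SPACA1 exon 1: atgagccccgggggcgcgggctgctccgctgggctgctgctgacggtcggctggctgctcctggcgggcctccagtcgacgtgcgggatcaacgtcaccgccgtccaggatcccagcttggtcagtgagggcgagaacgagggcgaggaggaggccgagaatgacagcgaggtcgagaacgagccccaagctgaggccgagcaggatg
LYZL6 exon 2: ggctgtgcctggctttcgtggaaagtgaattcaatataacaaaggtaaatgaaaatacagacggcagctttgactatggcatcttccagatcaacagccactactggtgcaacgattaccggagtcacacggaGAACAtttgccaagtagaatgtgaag

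The other 3 acrosomal genes with a peak had low scores. ACRV1, an acrosomal matrix protein, had a peak at the stop codon in Fs replicates 1 and 2, with scores of 3.30 and 7.52. SPACA3, another lysozyme-like protein, had 1 in Fs replicate 1 with 6.20. PRSS37, a protease-like protein needed for sperm to bind the egg coat, had 2 in Fts replicate 2 with 8.52 and 5.05. No peak was listed in any sample for SPACA4, SPACA7, SPACA9, SPAM1 (the sperm hyaluronidase), ZPBP2, SPESP1 and EQTN (both of the equatorial segment), CD46 and PRSS55.

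Of the 9 genes of binding and fusion with the egg that were found, 2 had a peak, or 22.2%, against 56.6% of all genes and a length-weighted 46.7%. No peak was found in any sample on IZUMO1, the ligand of the egg receptor JUNO, on TMEM95 and DCST2, which act in fusion, or on IZUMO3, IZUMO4, ADAM2 and TEX101. Where no peak was listed, the lists alone do not tell a missing mRNA from an unmethylated one, and mRNA levels were not looked up. IZUMO2 had a peak in 2 Fs samples and 3 Fts samples. Its exon 4 of 6, only 21 bp long, at chr6:55064064-55064084 on the minus strand, had scores of 18.1 in Fs replicate 2 and 26.4, 44.4 and 32.7 in the Fts samples. In Fs replicate 3 the peak lay on exon 3, which joins exon 4 in the mRNA, with a score of 42.0, and Fts replicate 3 had a further peak on exon 2 with 3.81. Best scores over the gene were 20.0 ± 21.0 in Fs and 34.5 ± 9.13 in Fts and overlapped (two-sided exact permutation test, p = 0.4, n = 3). DCST1, which acts with DCST2 in fusion, had 1 peak in Fts replicate 3 with a score of 7.70. The IZUMO2 exon found in 4 samples is shorter than an RNA fragment, and no RRACH lies in it.
IZUMO2 exon 4: cctgcgatcccaaaatttgcc

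PLCZ1 encodes the sperm phospholipase that starts calcium oscillations in the egg. Its listed peaks lay at different places in the groups, but several of them had a p above 0.05 by their score. Shared places were also uncommon elsewhere, as 23.0% of all regions on mRNA exons were found in samples of both groups. Exon 8 of 14, at chr5:54435280-54435519 on the plus strand, was covered whole in every Fts sample (scores 11.6, 92.4 and 6.19) and in no Fs sample. With a score of at least 20 required, this peak was left in Fts replicate 2 alone. A short stretch of exon 10, at chr5:54442130-54442148, had a peak in Fs replicates 1 and 2, with scores of 6.25 and 38.2, and in no Fts sample. Fs replicate 3 had no peak on the gene. Single Fts samples had a further peak, on exon 7 with a score of 24.2 in replicate 2 and on exon 5 with 7.33 in replicate 3. Over the gene, the best scores of 14.8 ± 20.5 in Fs and 37.1 ± 47.9 in Fts overlapped (two-sided exact permutation test, p = 0.5, n = 3). The exon 8 stretch was the only region on these genes in all Fts samples and no Fs sample, 2.27% of the 44, against 6.78% of all regions on mRNA exons. It is 34.2% G and C and holds 4 RRACH matches, while none lies in the exon 10 stretch. Both are shown as stretches with peaks in a single group. For exon 10 the groups overlapped, as Fs replicate 3 had no peak there.
PLCZ1 exon 8: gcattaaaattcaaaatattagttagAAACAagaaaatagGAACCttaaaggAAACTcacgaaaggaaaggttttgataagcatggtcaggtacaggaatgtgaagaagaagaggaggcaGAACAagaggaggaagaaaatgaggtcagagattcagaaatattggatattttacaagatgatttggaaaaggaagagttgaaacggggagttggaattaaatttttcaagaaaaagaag
PLCZ1 exon 10, last 19 bp: aatataggttgtcaaatgg

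**Figure D2:**
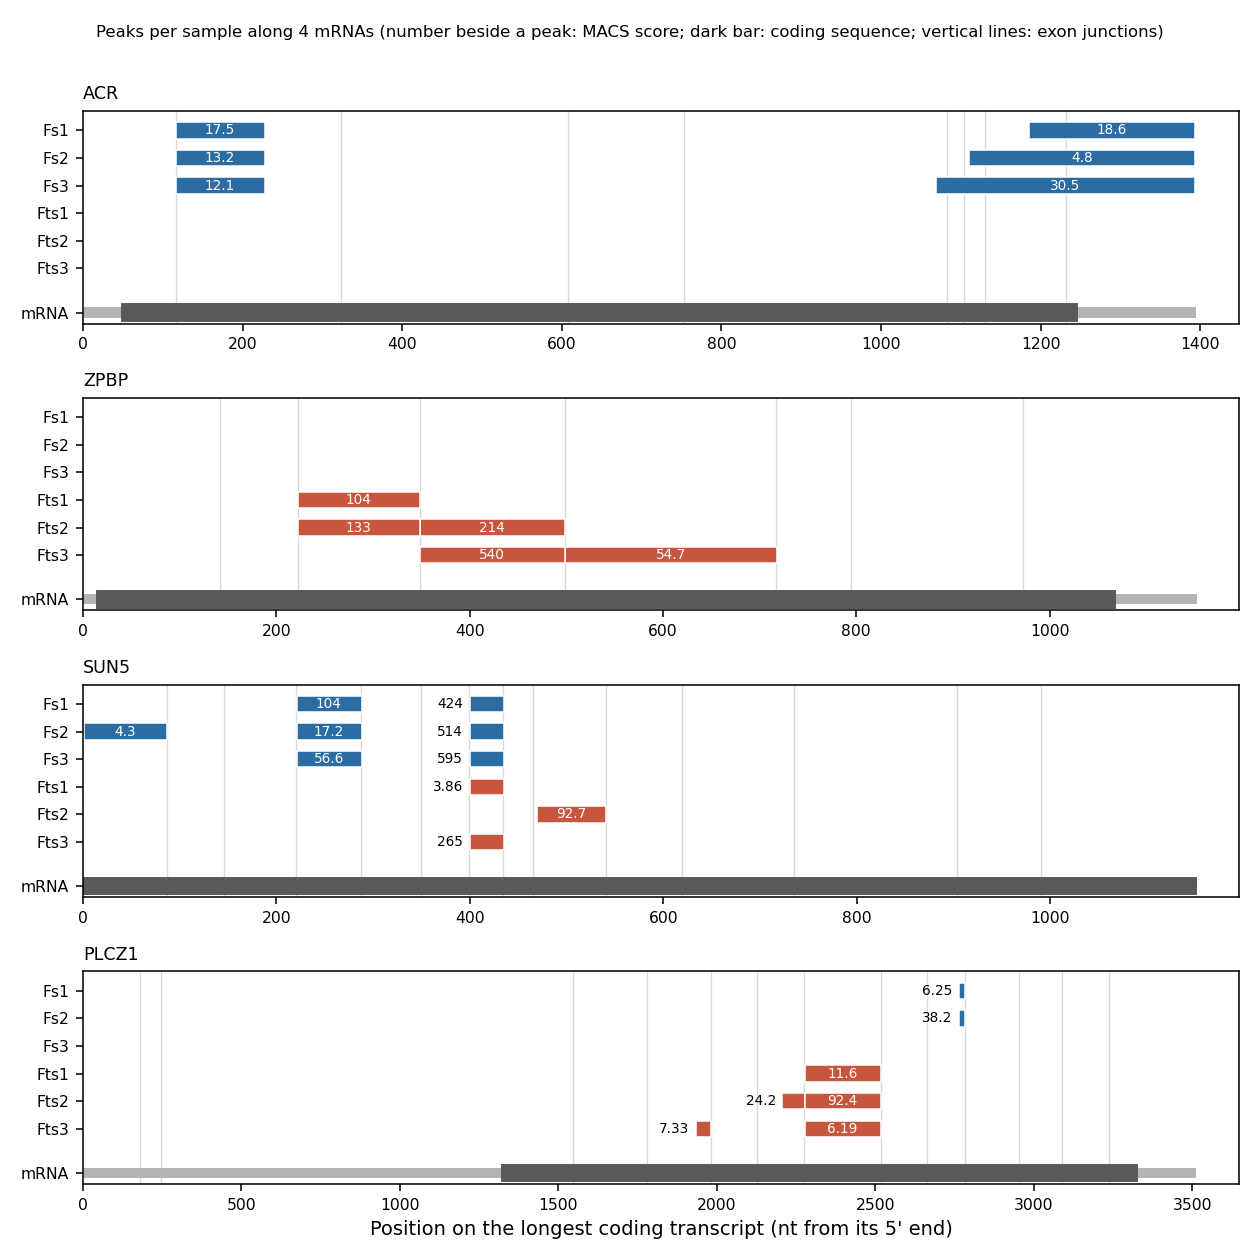
Peaks of each sample along the longest coding transcripts of ACR, ZPBP, SUN5 and PLCZ1 (x axis, nt from the 5′ end), blue for Fs and red for Fts, with the score of each peak; the dark bar is the coding sequence and vertical lines are exon junctions. The Fs peaks of PLCZ1 lie on exon 10 and its Fts peaks on exons 5, 7 and 8, while SUN5 has its exon 7 peak in both groups.

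Of the genes that form the acrosome and shape the head, 6 of 7 had a peak, or 85.7%, against 56.6% of all genes and a length-weighted 59.5%. With 7 genes, 4 of them of 4000 bp or more, this is no result about the set. SUN5, a nuclear envelope protein that fixes the tail to the head, and DPY19L2, an inner nuclear membrane protein that anchors the acrosome, had higher best scores in Fs. PICK1, which acts in the traffic of Golgi vesicles to the acrosome, had peaks in Fts alone. SUN5 also had the most peaks per kb of exon over the 6 samples, 8.70, followed by SPACA1 with 6.20, LYZL6 with 4.85, ZPBP with 4.35 and ACR with 4.31. That place comes from Fs, with 2.03 peaks per kb and sample there and 0.870 in Fts, where ZPBP (1.45) and SPACA1 (1.03) had more. The peaks of SUN5 numbered 2, 3 and 2 in Fs, and 1 in each Fts sample, and these numbers overlapped once peaks under a score of 20 were dropped.

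Exon 7 of 14 of SUN5, 35 bp long, at chr17:36518833-36518867 on the minus strand, had scores of 424.2, 513.8 and 595.5 in Fs. In Fts replicates 1 and 3 it had scores of 3.86 and 264.5, and in replicate 2 the only peak of the gene lay on exon 9, with 92.7. Best scores were 511.2 ± 85.7 in Fs and 120.4 ± 132.5 in Fts (SD, n = 3), without overlap, also in all 6 alternative settings and with any replicate left out. The exon 7 peak stood at percentile 98.4, 99.0 and 98.9 of the scores in the Fs lists. Exon 4, at chr17:36524705-36524771, had a peak in each Fs sample, with scores of 103.7, 17.2 and 56.6, and none in Fts, and Fs replicate 2 had a further peak on exon 1 with 4.30. Exon 4 holds a GGACT, the best-studied form of RRACH, and exon 7 holds no RRACH. Both exons of SUN5 are shown, the fourth with peaks in Fs alone. With that stretch, 3 of the 44 regions were in all Fs samples and no Fts sample, the other 2 being on ACR. That is 6.82%, against 3.65% of all regions on mRNA exons.
SUN5 exon 4: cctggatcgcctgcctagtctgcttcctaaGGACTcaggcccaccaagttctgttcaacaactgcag
SUN5 exon 7: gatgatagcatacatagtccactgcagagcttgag

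DPY19L2 had its main peak on exon 16 of 22, at chr18:38748543-38748589 on the plus strand. Scores there were 38.8, 29.9 and 92.7 in Fs and 6.71 in Fts replicate 1, and the gene had 1 peak elsewhere in Fts replicate 3 with 5.30 and 1 more in Fs replicate 3 with 10.45. Best scores were 53.8 ± 34.0 in Fs and 4.00 ± 3.54 in Fts (SD, n = 3), without overlap, but with overlap when a score of at least 50 was required. The Fs peaks there were only 17 to 22 bp long. PICK1 had no peak in Fs, and 1, 4 and 3 peaks in Fts, where its best scores were 30.7, 154.8 and 136.5 (107.3 ± 67.0, SD, n = 3). The Fts peaks of PICK1 lay on exons 1 to 4, 7 and 13 of 13. Exon 1 had a peak in Fts replicates 1 and 3 and exon 4, at chr5:9819662-9819790 on the minus strand, in replicates 2 and 3, so that no exon had one in all 3. With a score of at least 50 required, Fts replicate 1 lost its peak and the groups overlapped. Exon 16 of DPY19L2 is shown whole, as the Fts peak covered it. The Fs peaks cover only its first 17 to 22 bases, and the marked match lies outside them. Exon 4 of PICK1 is shown as the coding stretch that 2 Fts samples shared.
DPY19L2 exon 16: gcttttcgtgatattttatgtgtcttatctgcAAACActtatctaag
PICK1 exon 4: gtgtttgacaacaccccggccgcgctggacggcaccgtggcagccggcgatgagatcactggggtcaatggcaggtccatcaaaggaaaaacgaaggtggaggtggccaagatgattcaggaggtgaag

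AGFG1, which acts in the fusion of the vesicles that build the acrosome, overlapped between the groups. Exon 3 of 15, at chr15:128942573-128942688, had scores of 10.95 and 18.1 in Fs replicates 2 and 3 and of 6.04 in Fts replicate 3. Fts replicate 2 had a single peak of score 458.1 at the 5′ end of the gene, with 265 of its 806 bp on exons, the rest lying upstream of the annotated start. GOPC, a Golgi protein, had scores between 3.13 and 6.35 in 1 Fs and 2 Fts samples. SPATA16, a protein of the Golgi and the forming acrosome, had scores of 11.8 and 5.26 in Fts replicates 1 and 3. SPATA46 had no peak.

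Among the genes of chromatin compaction, PRM2 and TNP2 each had 1 peak, in a single Fts sample, as 24.7% of all genes with a peak had theirs in 1 sample, and PRM1 and TNP1 had none. The 2 of 4 stand against 56.6% of all genes and a length-weighted 41.4%. The peak of PRM2, a protamine, covered its first exon, at chr3:31864350-31864655, in Fts replicate 2 with a score of 3100, a value that 67 peaks of that sample share. The peak of TNP2, a transition protein, lay at chr3:31869720-31870496, in exon 1 of 2 at the start codon, in Fts replicate 3 with a score of 2075. No other sample had a peak on either gene.

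Peaks of high score on these genes were mostly in Fts replicates 2 and 3. A score of at least 200 was reached by 1, 1 and 2 peaks in Fs, on 2 genes in all, and by 1, 5 and 6 peaks in Fts, on 8 genes. Fts replicate 1 was thus like the Fs samples, and the groups overlapped. Of all peaks on mRNA exons, 3.86% in Fs and 7.94% in Fts reached this score. The highest score on the listed genes was 424.2, 513.8 and 595.5 per Fs sample, on SUN5 each time, and 675.0, 3100 and 2827 per Fts sample, on ACRBP, PRM2 and ACRBP. These did not overlap. Over all peaks, the highest score was 3100 in each Fs list and 3171 to 3221 in the Fts lists. Exactly 3100 was shared by 12, 14 and 14 peaks in Fs and by 34, 67 and 37 peaks in Fts. With so many peaks at 1 value, the order of scores at and above it is uncertain. No difference between the list maxima is therefore read from them. Low scores were common too. In Fs, 41.7% of the peaks on these genes had a p above 0.05 by their score, against 54.5% of all Fs peaks on mRNA exons, and in Fts the shares were 36.2% and 47.8%. Of the 44 regions, 24 were found in 1 sample, a share of 54.5% against 47.6% of all regions. These single-sample regions numbered 1, 1 and 2 in Fs and 1, 9 and 10 in Fts, so Fts replicates 2 and 3 held most of them and Fts replicate 1 was like an Fs sample. Among all single-sample regions on mRNA exons, 54.1% were in Fts, against 20 of the 24 here. Regions found in samples of both groups were 8, or 18.2%, against 23.0%.

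Most peaks followed the exons of the gene. Of the 83 peaks, 50 covered a whole exon and 30 more ended at an exon edge, and none lay on another gene of the same strand. Short peaks were frequent, with 25% of the Fs peaks and 17.0% of the Fts peaks under 50 bp, against 8.83% and 5.55% over all genes. Most were the same few stretches listed in several samples, on SUN5 exon 7, DPY19L2 exon 16, IZUMO2 exon 4 and PLCZ1 exon 10. They are not separate cases, and the share is no result about the genes as a group. Shares by feature leave out peaks whose midpoint lay outside the longest coding transcript, 1 in each group on these genes. Peaks in the coding sequence, more than 100 nt from the start and stop codons, made up 72.3% ± 7.86 per Fs sample and 76.3% ± 6.50 per Fts sample (SD, n = 3), and over all genes 70.9% ± 0.647 and 75.0% ± 0.470. No Fs peak and 2 Fts peaks had their midpoint in the 3′ UTR, both on the last exon of CRISP2. The difference between the groups in the coding share was smaller than the spread, and its direction turned once peaks under a score of 20 were dropped (-23.0 percentage points, Fts minus Fs).

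The motif was searched on the transcript strand. GGACT lay in 16.2% ± 6.40 of the peaks on these genes in Fs and 13.9% ± 5.34 in Fts, and in 22.1% ± 0.408 and 23.5% ± 0.793 of all peaks. RRACH, which includes GGACT, lay in 66.9% ± 5.07 and 72.2% ± 3.74, and in 82.0% ± 0.395 and 87.2% ± 0.504 of all peaks. By peak length, RRACH was in 2 of 17 peaks on these genes under 50 bp, against 31.2% of all peaks that short. Those without it were mostly repeats of SUN5 exon 7, IZUMO2 exon 4, PLCZ1 exon 10 and the start of DPY19L2 exon 16. RRACH was in 9 of 11 peaks from 50 to 100 bp (69.1% of all) and in 19 of 21 from 100 to 200 bp (87.4%). From 200 to 400 bp it was in 15 of 21, against 95.9% of all, the 6 without it being those of SPACA1 exon 1, and in all 13 of 400 bp or more (99.7%). The groups overlapped in both shares on these genes.

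Related genes outside the list were counted in the same way. Of 52 further genes of sperm-egg binding, the acrosome and head shape, 38 were found and 26 had a peak, or 68.4%, against 56.6% of all genes and a length-weighted 54.6%. The number of peaks was higher in every Fts sample for ADAM5 and NECTIN3 and in every Fs sample for SUN3, a relative of SUN5, where the shares over all genes with a peak were 8.98% and 5.36%. The best score was higher in every Fts sample for ADAM5 and CLGN, a chaperone of sperm surface proteins. It was higher in every Fs sample for ZAN, SMAP2, SUN3 and NECTIN2, where the shares over all genes with a peak were 13.2% in the Fts and 10.7% in the Fs direction. ZAN encodes zonadhesin, an acrosomal protein that binds the egg coat. Its best scores were 179.4, 279.6 and 101.4 in Fs and 85.8, 27.7 and 56.4 in Fts. SUN3 had best scores of 16.6, 17.0 and 4.32 in Fs and no peak in Fts. NECTIN3, which acts in the junctions between spermatids and Sertoli cells, had the most peaks of the list, 15, and the highest score, 2009 in Fts replicate 2.

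Markers of sperm and of other cells were counted as well. The sperm were treated with Triton X-100 by the authors to lyse other cells. The counts with a peak stand against 56.6% of all genes, and the length-weighted share is given for each list. Of 10 further sperm genes, 5 had a peak (49.2% by length), and the summed peaks were 2, 2 and 3 in Fs and 3, 5 and 2 in Fts. AKAP3 had the most, 7, and ODF1, AKAP4, GAPDHS, TSSK6 and SMCP had none. Of 11 leukocyte markers, 7 had a peak (53.5% by length), with 2, 4 and 5 peaks in Fs and 1, 1 and 4 in Fts. CD163 had the most, 4, PTPRC had a peak in Fs replicate 2 and Fts replicate 3, and CD14, CD79A, CSF1R and LYZ had none. Of 6 epithelial markers found, 4 had a peak (49.3% by length), and the summed peaks of 1, 1 and 2 in Fs and 6, 7 and 6 in Fts did not overlap. KRT8 had the most, 9, all in Fts, with best scores of 52.3, 480.6 and 101.9, and EPCAM and KRT5 had none. The best scores of KRT8, KRT18 and KRT19 were higher in every Fts sample, as were those of ZPBP and PICK1 and of 13.2% of all genes with a peak. CDH1, the other epithelial marker with a peak, overlapped, with scores of 8.44 and 3.28 in Fs replicates 2 and 3 and 10.6 in Fts replicate 3. Of 8 markers of connective tissue and muscle, 7 had a peak (60.6% by length), with 6, 7 and 9 peaks in Fs and 7, 4 and 6 in Fts. COL3A1 had the most, 10, ACTA2 had none, and VIM had 1 peak in each Fs sample and none in Fts, as COL1A2 had in reverse, with 3, 1 and 1 peaks in Fts. Among all genes with a peak, 4.16% were like VIM in this and 5.59% like COL1A2. Of 8 markers of Sertoli and Leydig cells, 5 had a peak (54.0% by length), with 0, 2 and 3 peaks in Fs and 1, 2 and 1 in Fts. SOX9 and INSL3 had the most, 3 each, and AMH, WT1 and HSD3B1 had none. SOX9, a Sertoli cell marker, had 1 peak in each Fts sample, with scores of 41.2, 76.3 and 87.6, and none in Fs, so the groups did not overlap, as for ZPBP, PICK1, KRT8 and COL1A2. INSL3 had its peaks in Fs replicates 2 and 3 and overlapped. The part of these cells in the differences on the listed genes was not tested.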

How the data were processed

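MeRIP-seq was done on 3 Fs and 3 Fts samples, each with an IP and an input library. Per the methods and the submitters' processing notes, the authors trimmed reads with cutadapt 1.9.3, aligned them to susScr11 with HISAT2, called peaks per IP sample against its input with MACS (version not given in the sources used here) and kept those on mRNAs. The deposited score of a peak is 10 times -log10 p. A list of differential sites, which holds the authors' own comparison, was not used.

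Peaks were placed on RefSeq Sscrofa11.1 (annotation release 106) in Python 3.11.15 where they overlapped an mRNA exon of the same strand by at least 1 bp. Regions are merged peaks of a gene. Features come from the peak midpoint on the longest coding transcript. The members and lists were chosen with earlier results of these data known. Genes named with all values had groups that did not overlap, a region in all 6 samples, 1 of the 10 highest mean best scores or 1 of the 5 highest peak numbers per kb of exon. IZUMO2, PLCZ1 and the genes of low score fall outside this rule, and their values are given after they were seen. Length-weighted shares were added after the counts were seen. The code was tested on simulated data. Alternatives were a score of at least 20 or 50, lists of equal length, the overlap, the transcript, joined peaks, pairs, the codon classes, the motif and each replicate left out.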

Additional observations from a re-analysis of the deposited data

How the results depend on the processing

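The difference in genes with a peak (Fts minus Fs) was 2.33, and it was -0.333 with an equal number of highest-scoring peaks (8015) in each sample and 1.17 without Fts replicate 3. The difference in peaks was 3.67, and 0.333 with equal numbers, 2.33 with peaks joined across exon junctions, 1.5 without Fts replicate 3 and 6.5 without Fts replicate 1. The difference in the share of peaks on the listed genes was 0.00764 percentage points, -0.00348 with equal numbers and 0.0366 with a score of at least 50, and between -0.00780 and 0.0269 with a replicate left out. It turned negative without Fs replicate 3 (-0.00368) or Fts replicate 3 (-0.00780). The coding share (difference of 3.91 percentage points) turned to -23.0 and -23.6 with a score of at least 20 and 50, was 12.7 with codon classes of 200 nt, and ranged from -0.114 (without Fs replicate 2) to 7.74. The GGACT share (-2.31 points) was -9.26 with a score of at least 50, -16.2 in 100 bp around the midpoint and, for RRACH in its place, 5.27, and ranged from -5.88 to 0.285 (without Fs replicate 2). The cause was not tested.

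Counts of genes without overlap were small and followed the score. Shares over all genes were computed for the main setting alone, so the counts below cannot be set against a background. With a score of at least 20, the number of peaks was higher in Fs for 1 gene, DPY19L2, and no longer for ACR and SUN5. With a score of at least 50, it was higher in Fts for 1 gene and in Fs for 0, and the best score for 1 gene in each direction, ZPBP and SUN5. With a replicate left out, the counts ranged from 2 to 4 and from 2 to 3 for peaks, and from 2 to 4 and from 3 to 4 for scores, in Fts and Fs. Groups separate more easily with 2 samples in 1 of them, so the genes that joined are no further result. Without Fts replicate 1, CRISP2 and PLCZ1 joined the genes with more peaks in Fts and CRISP2 those with higher scores. Without Fts replicate 2, SPATA16 joined both and ACRBP those with higher scores, while LYZL6 joined those with more peaks and higher scores in Fs. Without Fs replicate 3, ACRV1 joined both lists of Fs, and IZUMO2 joined the genes with higher scores in Fts, as PLCZ1 did without Fs replicate 2. Regions in all samples numbered 0 in place of 1 with a score of at least 20 or 50 and ranged from 1 to 2 with a replicate left out, 2 without Fts replicate 2. Regions in the 3 Fs samples alone numbered 3, and 1 and 0 with those minimum scores, the 1 being on exon 16 of DPY19L2 and none of the 3. The region in the 3 Fts samples alone was lost at 50 (0), and at 20 it was the IZUMO2 exon in place of that of PLCZ1.

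The methods name a paired design, but no source used here says that a number stands for a boar. Over 11705 genes, deviations of log scores from group means correlated between -0.0173 and 0.000371 in the samples with the same number. In samples with different numbers they correlated between -0.0144 and 0.0176. The scores thus showed no pairing of any kind, so this check cannot decide whether the numbers stand for boars. Taken as a replicate block, the 3 pairs gave 3 genes with a higher score in Fts, PLCZ1 being added, and changed no other count. The share over all genes was not computed for the block. Differences of means are the same with pairs by construction. Scores depend on read depth, which was not used here.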
